A study of Rattus norvegicus with 6 samples.

Results

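Genes of the NRF2 antioxidant response and of the glutathione and thioredoxin systems were followed in cultured heart muscle cells under 2 growth stimuli. The set named 41 genes, chosen by symbol in the platform annotation. For 40 of them the array held a probe set assigned to that gene alone, out of 14217 named genes in all. The probe set for Prdx1 was assigned to a second gene as well and was not used. Where several probe sets named a gene, the one with the strongest mean signal stood for it, and 8 of the 40 genes had more than 1 probe set.

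Cells came from hearts of Wistar rats 1 to 2 days old and were cleared of fibroblasts on a Percoll gradient. Control cells were untreated, phenylephrine cells received 50 µmol/l of this α1-adrenergic agonist, and stretch cells were extended biaxially to 112% for 24 h on a silicone membrane coated with collagen. Stretched cells had been without serum for 24 h before the stretch. For the other groups the surface, the serum schedule and the length of treatment were not given in the sources used here. Each group had 2 arrays, and the RNA was pooled from several preparations. Whether the arrays of a group stem from separate cultures is not stated, so p-values measure only how far these samples spread, and that spread may be technical.

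NRF2, encoded by Nfe2l2, is a transcription factor that KEAP1 holds in the cytoplasm and marks for destruction. Oxidants and electrophiles modify KEAP1, and NRF2 then enters the nucleus, pairs with a small MAF protein and binds antioxidant response elements near genes for glutathione synthesis, thioredoxin recycling, NADPH supply and detoxification. In heart muscle, whose mitochondria give off superoxide during respiration, these systems remove hydrogen peroxide and keep protein thiols reduced. NRF2 itself is controlled mainly at the protein level, so the RNA of its targets is the usual readout of its activity.

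The 2 members that rose with stretch, Txnrd1 and Srxn1, are shown with the 250 bases before their start sites, from RefSeq on assembly GRCr8. Srxn1 was added after its values were seen. Capitals mark the core of the antioxidant response element, TGACNNNGC on either strand, in Txnrd1, and the AP-1 motif, TGANTCA, in Srxn1. Txnrd1 had a second start site whose window held neither motif. The Txnrd1 stretch lies at chr7:22755905-22756154 on the minus strand and carries the core on its opposite strand. The Srxn1 stretch lies at chr3:161064562-161064811 on the plus strand. A second AP-1 motif of Srxn1, TGAGTCA, runs across the start site and is followed by GC. It differs from the core as searched only by a G in place of the C after TGA.
Txnrd1: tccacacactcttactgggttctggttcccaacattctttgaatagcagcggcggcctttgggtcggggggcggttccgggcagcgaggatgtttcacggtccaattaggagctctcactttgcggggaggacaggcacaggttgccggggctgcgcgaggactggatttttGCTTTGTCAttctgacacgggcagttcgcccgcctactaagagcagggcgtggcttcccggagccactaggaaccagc
Srxn1: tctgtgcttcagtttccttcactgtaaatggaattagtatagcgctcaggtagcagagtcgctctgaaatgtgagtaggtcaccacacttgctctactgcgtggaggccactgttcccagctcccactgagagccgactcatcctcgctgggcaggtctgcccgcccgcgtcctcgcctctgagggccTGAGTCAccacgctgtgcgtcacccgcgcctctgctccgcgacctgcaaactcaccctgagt

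Windows of 300 bases, 250 before and 50 after a start site, were in the table for 36 of the 40 members. The element core was in the windows of 10 of these 36 members (27.8%), against 13.1% of all 27457 genes in the table and 12.1% of all 33469 windows. The AP-1 motif was in those of 4 of 36 members (11.1%), against 8.04% of genes and 7.33% of windows. The cores of 5 of the 10 members are shown with 6 bases on each side, in the direction in which the core reads from left to right. Those of Nfe2l2, Prdx4, Prdx5, Sod2 and Ugdh are not shown. The cores differ in their inner bases, and 3 of those shown overlap an AP-1 motif. These 3 are Gstp1, Me1 and Ephx1, where the core reads TGACTCAGC.
Gstp1: ctgtgtTGACTCAGCatccgg
Me1: ccgccgTGACTCAGCgcttct
Ephx1: ccccaaTGACTCAGCtgatct
Gclm: agacaaTGACTAAGCagaaac
Txnrd1: tcagaaTGACAAAGCaaaaat
They lie at chr1:210769752-210769772 (- strand), chr8:96540397-96540417 (- strand), chr13:95263160-95263180 (+ strand), chr2:213031957-213031977 (- strand) and chr7:22755968-22755988 (+ strand). A match says only that these letters are in the window, and the data hold no binding of any factor. A link between a core and the change of its gene was not tested.

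Values are log2 signals as deposited. A change is the treated mean minus the control mean, with its standard error (SE) from a limma fit to all 6 arrays, and n = 2 arrays per group throughout. Passing the threshold means a Benjamini-Hochberg adjusted p under 0.05 over all 31042 probe sets tested. The array medians lay between 8.30 and 8.33 log2. The interquartile ranges were 1.89 to 1.92 on the arrays numbered 1 and 1.70 to 1.82 on those numbered 2. Phenylephrine replicate 2 stood apart, with a spike-in control median of 9.31 log2 against 10.1 to 10.4 on the other arrays. Arrays of equal number deviated together, so a fit with the replicate number as a block was also made. It is given where it moved a call of the probe set that stands for a named member or other pathway gene. For the cell type markers it is given only in part.

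The cells matched their label: the 10 cardiomyocyte markers, such as Myh6, Tnnt2 and Actn2, had control means from 12.6 to 14.7 log2. Their summed linear signal, in units of 1000, was 183 to 196 on the control arrays, 199 to 221 with phenylephrine and 174 to 206 with stretch. The 12 fibroblast markers had control means from 7.84 to 13.2 log2, and some, such as Col3a1 and Postn, lay above the dimmest cardiomyocyte marker, Myl7. They summed to 44.3 to 45.3 in control, 31.6 to 33.0 with phenylephrine and 36.7 to 38.2 with stretch. Of these 12, 4 fell with phenylephrine in limma (9 at an unadjusted p under 0.05, 8 past the threshold with the block). Of all named genes, 2.36% fell with phenylephrine, or 11.2% and 12.4% in the same order. None of the 12 rose or fell with stretch in limma (4 lower at an unadjusted p under 0.05, 3 past the threshold with the block). Of all named genes, 0.0633% fell with stretch, or 2.47% and 1.3% in that order. The 6 smooth muscle and pericyte markers summed to 14.3 to 14.7, 20.0 to 21.2 and 16.9 to 18.5 in the same order. Des, by far the brightest at a control mean of 13.4 log2, weighs most in these sums. They follow this gene more than any other and do not measure smooth muscle cells or pericytes by themselves. Des had 0.42 with phenylephrine (limma adjusted p = 0.0847, or 0.0254 with the block). Acta2 and Cspg4 rose with phenylephrine, while Myh11, Pdgfrb and Rgs5 lay below control, at -0.17, -0.15 and -0.13, and did not pass. Macrophage and leukocyte markers summed to 5.25 to 5.33, 4.18 to 4.51 and 5.10 to 5.28, and 1 of 9, Cd68, fell with phenylephrine in limma (4 with the block). Endothelial markers summed to 3.43 to 3.51, 2.72 to 2.81 and 3.20 to 3.33, and 2 of 7, Kdr and Emcn, fell with phenylephrine in limma (3 with the block). Red cell markers summed to 1.48 to 1.54, 1.44 to 1.56 and 1.38. No marker can be called absent from these values. Fewer cells of a type and less RNA per cell cannot be told apart in bulk samples. The 3′ minus 5′ difference of the GAPDH controls, a measure of RNA integrity, was 0.248 and 0.304 log2 on the phenylephrine arrays and 0.356 to 0.587 on the others. That of hexokinase went the other way, at 1.65 and 1.88 against 1.29 to 1.49. The part of these shifts in the results on the members was not tested.

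Stretch moved a few members clearly and most of them little. Against control, Srxn1 and Txnrd1 rose and none of the 40 fell in limma, where 0.457% of all named genes rose and 0.0633% fell. At an unadjusted p under 0.05, 12 members were higher and 2 lower, where 4.77% and 2.47% of all named genes were. With the replicate block 9 rose and 1 fell, where 3.25% and 1.3% of all named genes did. After quantile normalization 7 rose and 2 fell, where 1.43% and 0.549% of all named genes did, and over all probe sets 72.5% of calls were then rises, against 88.8% without it. The median change of the 40 members was 0.07 log2, against 0.00 for all named genes. That median rested on single arrays, since it was 0.15 without control replicate 1, 0.003 without control replicate 2 and 0.11 without stretch replicate 2. The stretch arrays lay above both control arrays for 17 members and below them for 6, where this held for 21.6% and 19.4% of all named genes.

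Phenylephrine lowered Txnip and Abcc4 and raised none of the members in limma. Of all named genes, 2.36% fell and 2.41% rose. At an unadjusted p under 0.05, 11 members were lower and 4 higher, where 11.2% and 8.29% of all named genes were. With the block 10 members fell and 6 rose, where 12.4% and 8.39% of all named genes did. After quantile normalization 10 fell and 4 rose, against 6.39% and 6.3%. The median change was -0.05, against 0.00 for all named genes. It was -0.01 without control replicate 1, -0.12 without control replicate 2, -0.15 without phenylephrine replicate 1 and -0.01 without phenylephrine replicate 2. The phenylephrine arrays lay below both control arrays for 14 members and above them for 11, against 24.9% and 22.0% of all named genes.

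The direct comparison of the 2 treatments, whose differences use no control array although the spread is estimated from all 6 arrays, put most members higher under stretch. Sqstm1, Srxn1 and Osgin1 passed the threshold upward, and none passed downward in limma (13 higher and 2 lower at an unadjusted p under 0.05, where 9.05% and 5.52% of all named genes were). The shares of all named genes that passed were 0.999% upward and 0.837% downward. With the block 12 passed upward and 2 downward, against 9.28% and 5.02%. After quantile normalization 9 passed upward and 2 downward, against 3.41% and 3.76%. In all, 34 of 40 differences were above 0, where 7543 of all 14217 named genes were. The median of the 40 was 0.17 log2, against 0.01 for all named genes. Without phenylephrine replicate 1 the median was 0.26 and without phenylephrine replicate 2 it was 0.10. Both stretch arrays lay above both phenylephrine arrays for 25 members and below them for 3, where 23.8% and 17.7% of all named genes did so.

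**Figure D1:**
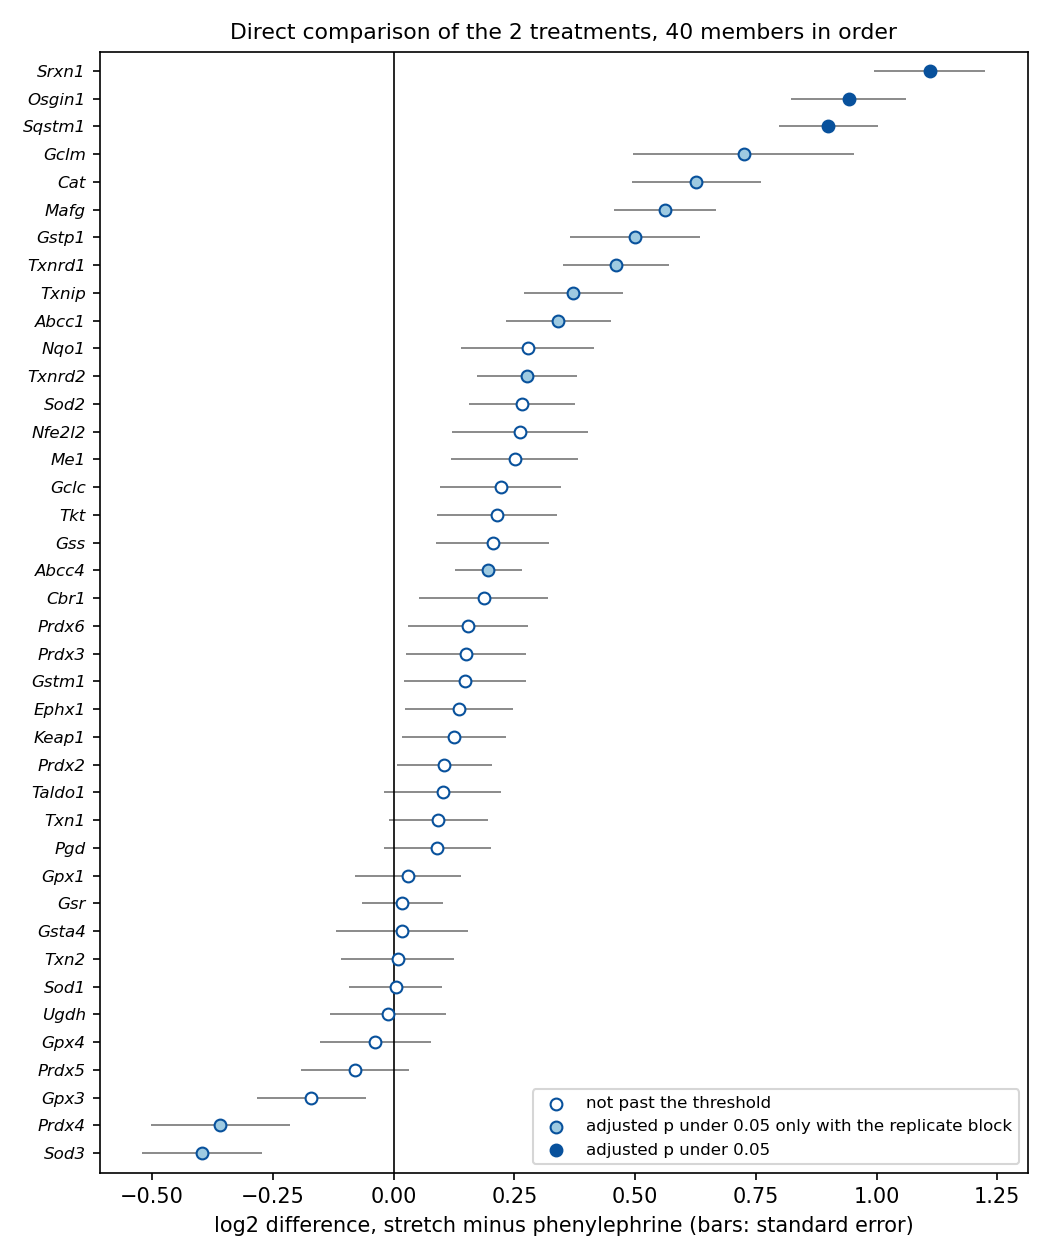
Log2 difference of stretch minus phenylephrine for the 40 members in order of size, with the standard error of the limma fit as bars. Srxn1, Osgin1 and Sqstm1 are at the top with differences of 1.11, 0.94 and 0.90, and Sod3 and Prdx4 at the bottom with -0.40 and -0.36.

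Among the 4 regulators, the RNA of the sensor pair hardly moved. Nfe2l2 read 11.95 and 11.73 log2 on the control arrays, 11.75 and 11.53 with phenylephrine, and 12.00 and 11.80 with stretch. Its values overlapped between control and either treatment, with a change of 0.06 ± 0.14 for stretch (limma adjusted p = 1) and -0.21 ± 0.14 for phenylephrine (adjusted p = 0.544). Keap1, the adaptor that targets NRF2 for degradation, read 10.45 and 10.31 in control, 10.24 and 10.16 with phenylephrine, and 10.31 and 10.35 with stretch. Its changes were -0.05 ± 0.11 and -0.18 ± 0.11 for stretch and phenylephrine, neither past the threshold.

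Sqstm1 lay above control with stretch and below it with phenylephrine, as did the brighter probe set of Mafg. Sqstm1 encodes p62, an autophagy receptor that can bind KEAP1 and is itself an NRF2 target. It read 13.06 and 12.92 on the control arrays, 12.60 and 12.55 with phenylephrine, and 13.45 and 13.51 with stretch. The 3 groups did not overlap, and stretch was the highest. Sqstm1 was 1.87-fold higher with stretch than with phenylephrine (0.90 ± 0.10 log2, SE; limma adjusted p = 0.00969). Against control the changes were 0.49 ± 0.10 with stretch (adjusted p = 0.17, or 0.0237 with the replicate block) and -0.41 ± 0.10 with phenylephrine (adjusted p = 0.0798, or 0.0177 with the block). A second, dimmer Sqstm1 probe set gave 0.93 for stretch against phenylephrine (limma adjusted p = 0.022), while 2 still dimmer ones gave 0.14 and -0.03 and did not pass. Mafg, a small MAF partner of NRF2, read 10.07 and 10.16 in control, 9.86 and 9.84 with phenylephrine, and 10.35 and 10.47 with stretch. Its groups did not overlap either, and the difference between the treatments was 0.56 ± 0.10 (limma adjusted p = 0.0521, or 0.00041 with the block). Its phenylephrine change was -0.26 ± 0.10 (adjusted p = 0.264, or 0.0314 with the block). The dimmer Mafg probe set disagreed for phenylephrine, with 0.08 ± 0.11, and gave 0.30 ± 0.11 for stretch and 0.22 ± 0.11 between the treatments (none past the limma threshold, though the last 2 passed with the block, at adjusted p = 0.027 and 0.0483).

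**Figure D2:**
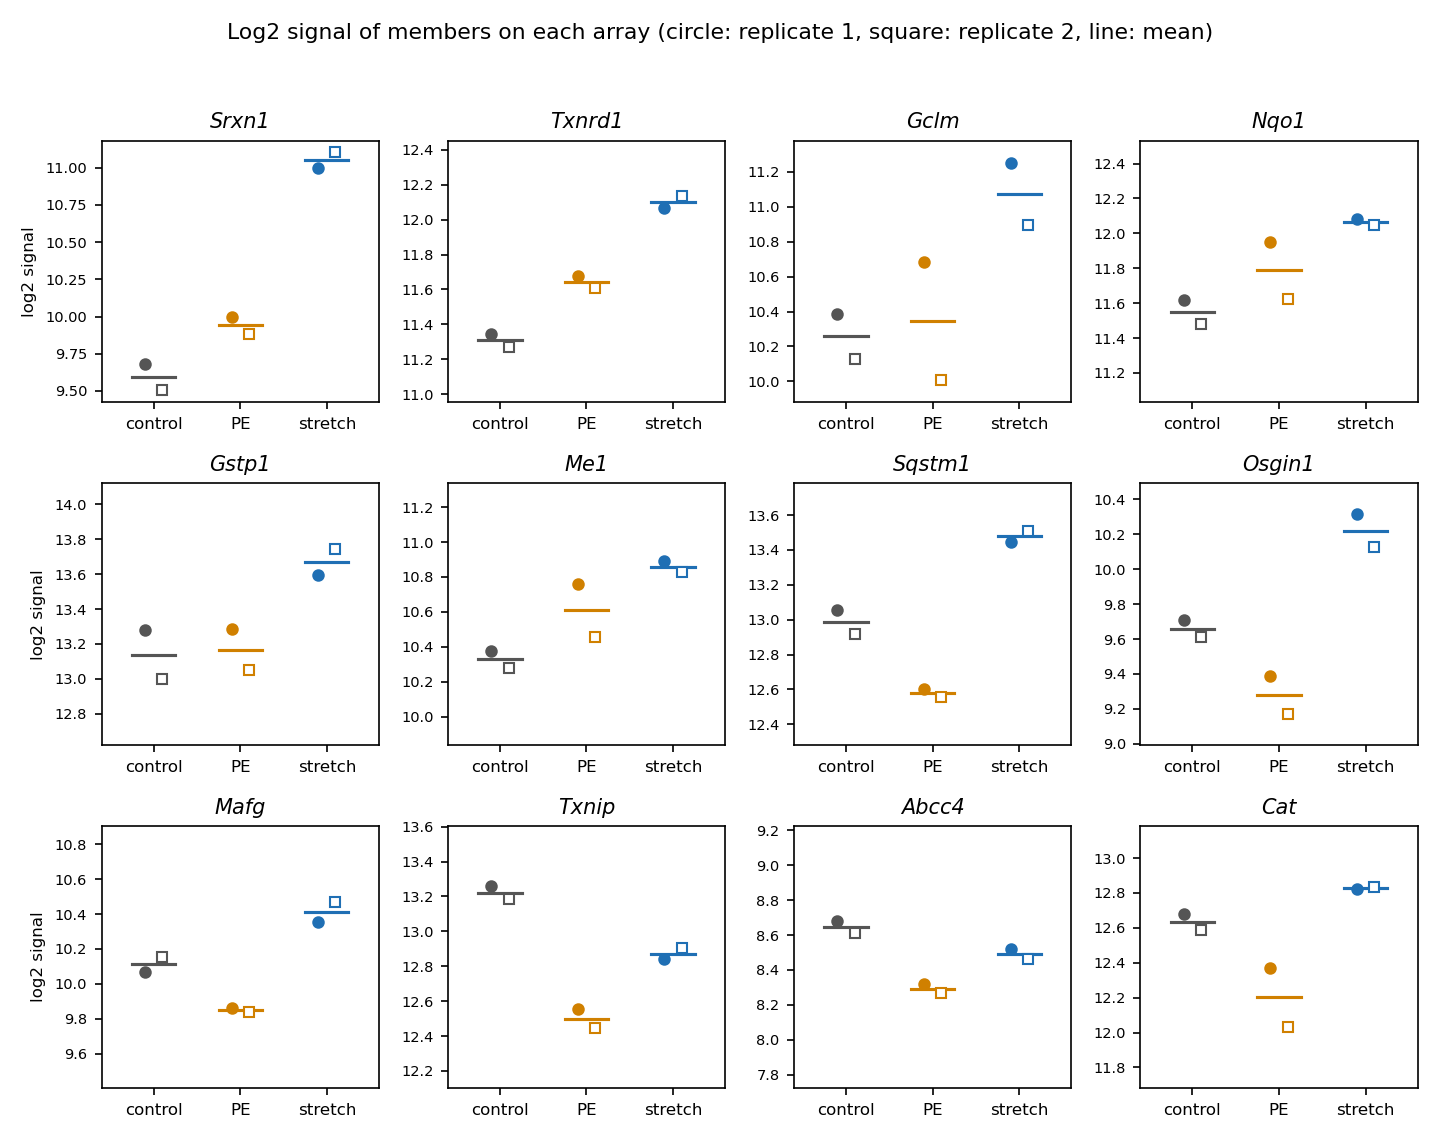
Log2 signal (vertical axis, a separate scale in each panel) of 12 members on the 6 arrays, grouped as control, phenylephrine (PE) and stretch, with a circle for replicate 1, an open square for replicate 2 and a line for the group mean. Srxn1 and Txnrd1 are lowest in control and highest with stretch, while Sqstm1, Osgin1 and the brighter probe set of Mafg are lowest with phenylephrine, and the phenylephrine arrays of Gclm lie 10.69 and 10.01 apart from each other.

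Genes of glutathione synthesis and reduction all had stretch values above 0, and limma called none of the 4 (3 had an unadjusted p under 0.05, all higher). Gclm, the regulatory subunit of glutamate-cysteine ligase, the rate-limiting enzyme of glutathione synthesis, read 10.39 and 10.13 in control, 10.69 and 10.01 with phenylephrine, and 11.25 and 10.90 with stretch. Both stretch arrays were above all others, and the 2 phenylephrine arrays spread across the range of the controls. The stretch change was 0.82 ± 0.23 (limma adjusted p = 0.434). With the block it passed, at an adjusted p of 0.000411, and so did the difference from phenylephrine (0.72 log2, adjusted p = 0.00041). The phenylephrine change of 0.09 ± 0.23 turned on 1 array, since it was -0.25 without phenylephrine replicate 1 and 0.43 without phenylephrine replicate 2.

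Gclc, the catalytic subunit of the same ligase, read 9.75 and 9.71 in control, 10.04 and 9.79 with phenylephrine, and 10.24 and 10.03 with stretch. Its stretch change was 0.41 ± 0.13 (limma adjusted p = 0.541, or 0.0112 with the block), and its second probe set gave 0.35. Gsr, the reductase that returns oxidized glutathione to its reduced form, read 8.50 and 8.41 in control, 8.67 and 8.73 with phenylephrine, and 8.81 and 8.63 with stretch. Both treatments lay above control, by 0.27 ± 0.08 and 0.25 ± 0.08 for stretch and phenylephrine, and neither passed (adjusted p = 0.563 and 0.185). With the block the phenylephrine value passed at 0.0234 and the stretch value did not, at 0.0549. Gss, which completes glutathione, had 0.08 ± 0.12 and -0.12 ± 0.12 for stretch and phenylephrine.

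The thioredoxin system held both members that rose with stretch. Srxn1 encodes sulfiredoxin, which repairs overoxidized peroxiredoxins. It read 9.68 and 9.50 on the control arrays, 10.00 and 9.88 with phenylephrine, and 11.00 and 11.10 with stretch. The groups did not overlap, with phenylephrine just above control and stretch far above both. Srxn1 rose 2.75-fold with stretch (1.46 ± 0.12 log2; limma adjusted p = 0.00308) and was 2.16-fold higher than with phenylephrine (1.11 ± 0.12; adjusted p = 0.00664). Its phenylephrine change was 0.35 ± 0.12 (limma adjusted p = 0.176, or 0.0123 with the block). The stretch call passed under all 14 alternatives that were run. The difference from phenylephrine did not pass without stretch replicate 1 or stretch replicate 2, with values from 0.55 to 1.17 over the 14 alternatives. A dimmer Srxn1 probe set gave 0.84 for stretch (limma adjusted p = 0.109), and the dimmest gave 0.09.

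Txnrd1, the cytosolic reductase that recharges thioredoxin with electrons from NADPH, read 11.35 and 11.27 in control, 11.68 and 11.61 with phenylephrine, and 12.07 and 12.14 with stretch. The groups stood in the order control, phenylephrine, stretch without overlap. It rose 1.73-fold with stretch (0.79 ± 0.11; limma adjusted p = 0.0383). The phenylephrine change was 0.33 ± 0.11 (adjusted p = 0.175, or 0.0232 with the block), and the difference between the treatments was 0.46 ± 0.11 (adjusted p = 0.113, or 0.00539 with the block). The stretch call was lost when either control array or either stretch array was left out, with an adjusted p of up to 0.425, and when both probe sets of the gene were averaged. The second probe set gave the same change of 0.79 for stretch with a wider spread (adjusted p = 0.37).

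Txnip went the other way. Its product binds thioredoxin and holds it inactive, and its gene responds to glucose supply. It read 13.26 and 13.19 on the control arrays, 12.55 and 12.45 with phenylephrine, and 12.84 and 12.91 with stretch. All treated arrays were below both controls, and phenylephrine was the lowest. Txnip fell 1.65-fold with phenylephrine (-0.72 ± 0.10; limma adjusted p = 0.0117), and this call was lost without control replicate 1 or control replicate 2. Its stretch change was -0.35 ± 0.10 (adjusted p = 0.486). The difference of 0.37 ± 0.10 between the treatments did not pass in limma (adjusted p = 0.171). It passed with the block (adjusted p = 0.0352) and after quantile normalization.

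The thioredoxins themselves moved little. Txn1, the cytosolic thioredoxin, read 13.80 and 13.64 in control, 13.84 and 13.75 with phenylephrine, and 13.81 and 13.96 with stretch. Its changes were 0.17 ± 0.10 for stretch and 0.07 ± 0.10 for phenylephrine, and the latter was -0.06 after quantile normalization. Txn2, the mitochondrial form, had 0.04 ± 0.12 for both treatments. Txnrd2, its mitochondrial reductase, read 10.18 and 10.24 in control, 9.95 and 9.86 with phenylephrine, and 10.14 and 10.22 with stretch. Both phenylephrine arrays were the lowest, with -0.30 ± 0.10 (limma adjusted p = 0.187, or 0.0162 with the block). The difference of 0.28 ± 0.10 between the treatments also passed with the block (adjusted p = 0.323, or 0.0357).

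**Figure D3:**
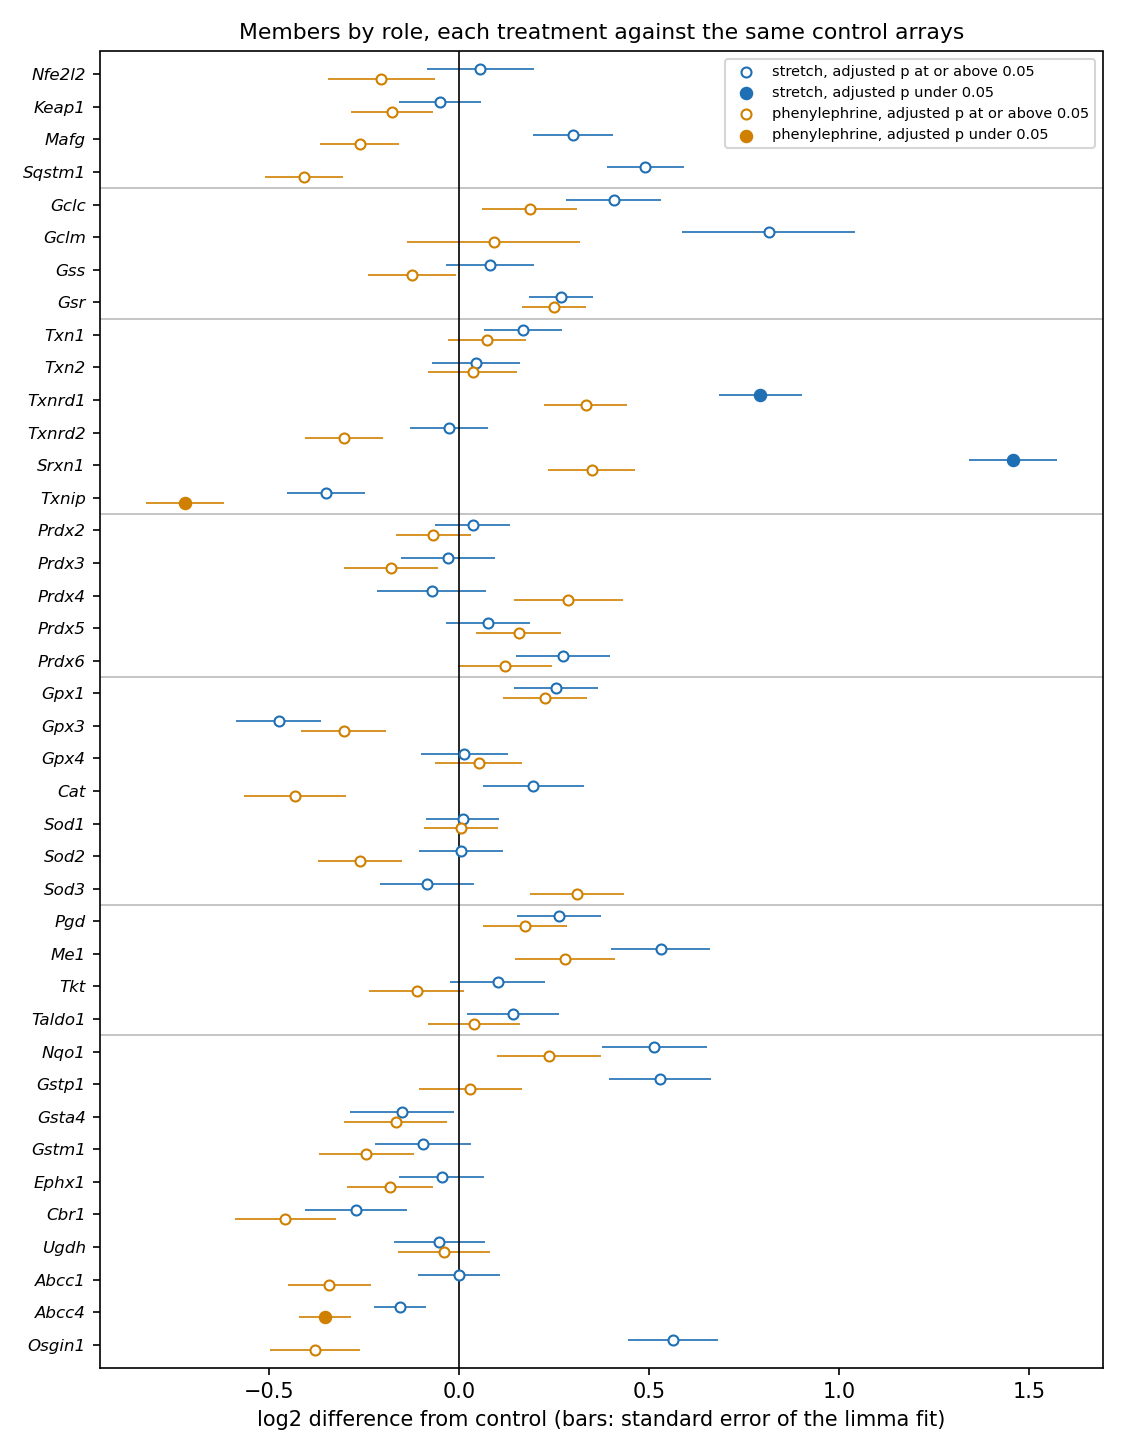
Log2 difference from control for stretch (blue) and phenylephrine (orange) in the 40 members, grouped by role from regulators at the top to detoxifying enzymes at the bottom, with the standard error of the limma fit as bars and filled points for adjusted p under 0.05. The only filled points are Srxn1 (1.46) and Txnrd1 (0.79) for stretch and Txnip (-0.72) and Abcc4 (-0.35) for phenylephrine, and both series share the same control arrays.

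Peroxiredoxins, which reduce hydrogen peroxide with electrons from thioredoxin, moved little against control. Of 5 measured, none passed against control in limma with either stimulus, and none had an unadjusted p under 0.05. Stretch values ran from -0.07 to 0.27, the highest being that of Prdx6, a form that uses glutathione. Phenylephrine values ran from -0.18 for the mitochondrial Prdx3 to 0.29 for Prdx4. Prdx4, the form in the endoplasmic reticulum, read 11.22 and 11.01 in control, 11.54 and 11.27 with phenylephrine, and 11.12 and 10.97 with stretch. Its phenylephrine arrays were above all others, and it did not pass in the limma fit without a block. With the block it passed upward for phenylephrine against control (limma adjusted p = 0.0339). It also passed downward for stretch against phenylephrine with the block (-0.36 log2, adjusted p = 0.015). Both differences passed after quantile normalization as well. Prdx2 had 0.04 ± 0.10 with stretch and -0.07 ± 0.10 with phenylephrine.

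Of the 7 glutathione peroxidases, catalase and superoxide dismutases, none passed in limma in any comparison. At an unadjusted p under 0.05 there were 1 for stretch, 4 for phenylephrine and 3 for stretch against phenylephrine. Catalase (Cat), which splits hydrogen peroxide in peroxisomes, read 12.68 and 12.59 in control, 12.37 and 12.03 with phenylephrine, and 12.82 and 12.83 with stretch. Its groups did not overlap and phenylephrine was the lowest. The phenylephrine change was -0.43 ± 0.13 (limma adjusted p = 0.149, or 0.016 with the block) and the difference between treatments 0.63 ± 0.13 (adjusted p = 0.082, or 0.00246 with the block).

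Gpx3, the secreted glutathione peroxidase, read 11.59 and 11.55 in control, 11.33 and 11.21 with phenylephrine, and 11.14 and 11.06 with stretch. It was lower under both stimuli, by -0.48 ± 0.11 with stretch and -0.30 ± 0.11 with phenylephrine (limma adjusted p = 0.262 and 0.226, or 0.00714 and 0.0257 with the block). Sod3, the extracellular superoxide dismutase, read 9.28 and 9.22 in control, 9.73 and 9.40 with phenylephrine, and 9.24 and 9.09 with stretch. It was highest with phenylephrine (0.31 ± 0.12; limma adjusted p = 0.262, or 0.0135 with the block), and stretch against phenylephrine was -0.40 ± 0.12 (adjusted p = 0.23, or 0.00472 with the block). The fibroblast marker sums were lower in both treatments than in control, and a link between them and these 2 secreted enzymes was not tested. The cytosolic Sod1 differed by 0.01 ± 0.10 or less between any groups. Gpx1, the common cytosolic peroxidase, had 0.26 ± 0.11 and 0.23 ± 0.11 for stretch and phenylephrine, and Gpx4, which protects lipids, 0.01 ± 0.11 and 0.05 ± 0.11. The mitochondrial Sod2 had 0.00 ± 0.11 and -0.26 ± 0.11.

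All 4 genes of the group for NADPH supply and the pentose phosphate pathway had stretch values above 0. Limma called none of them (2 had an unadjusted p under 0.05). Me1, the cytosolic malic enzyme, read 10.38 and 10.28 in control, 10.76 and 10.46 with phenylephrine, and 10.89 and 10.83 with stretch. All treated arrays were above both controls. Its changes were 0.53 ± 0.13 with stretch and 0.28 ± 0.13 with phenylephrine (limma adjusted p = 0.312 and 0.347, or 0.00349 and 0.0401 with the block), and its second probe set gave 0.39 and 0.33. The pentose phosphate enzymes Pgd, Taldo1 and Tkt had stretch values of 0.26 ± 0.11, 0.14 ± 0.12 and 0.10 ± 0.12.

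Most of the 10 detoxifying enzymes, exporters and Osgin1 leaned below control under either treatment. Values below 0 were found for 7 with stretch and 8 with phenylephrine, where 6851 and 7015 of all 14217 named genes had them. Of the 10, 9 were higher with stretch than with phenylephrine, where 7543 of all named genes were. Osgin1, a growth-inhibiting oxidative stress gene, read 9.71 and 9.61 in control, 9.39 and 9.17 with phenylephrine, and 10.31 and 10.13 with stretch. As with Sqstm1, control lay between the treatments with no overlap. Osgin1 was 1.92-fold higher with stretch than with phenylephrine (0.94 ± 0.12; limma adjusted p = 0.014). Against control it had 0.56 ± 0.12 and -0.38 ± 0.12 (adjusted p = 0.174 and 0.154, or 0.000608 and 0.00263 with the block). The differences of Sqstm1 and Osgin1 between the treatments did not pass without stretch replicate 1 or without stretch replicate 2, with an adjusted p of up to 0.108 and 0.125.

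Nqo1, a quinone reductase often used to gauge NRF2 activity, read 11.62 and 11.48 in control, 11.95 and 11.63 with phenylephrine, and 12.08 and 12.05 with stretch. The stretch arrays were the highest and close together, and phenylephrine replicate 2 was near the controls. Its stretch change was 0.51 ± 0.14 (limma adjusted p = 0.389, or 0.0112 with the block). Gstp1, a glutathione S-transferase, read 13.28 and 13.00 in control, 13.28 and 13.05 with phenylephrine, and 13.59 and 13.74 with stretch. Both stretch arrays were above all others, with 0.53 ± 0.13 against control (limma adjusted p = 0.338, or 0.0373 with the block) and 0.50 ± 0.13 against phenylephrine (adjusted p = 0.161, or 0.0205 with the block). Nqo1, Gstp1, Me1, Sqstm1 and Osgin1, together with Srxn1 and Txnrd1, were the 7 members that passed upward with stretch both with the block and after quantile normalization, and Gpx3 passed downward in both.

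Abcc4, an exporter of cyclic nucleotides and drug conjugates, read 8.68 and 8.61 in control, 8.32 and 8.27 with phenylephrine, and 8.52 and 8.46 with stretch. Phenylephrine was the lowest without overlap, and the fall was small at 1.28-fold (-0.35 ± 0.07; limma adjusted p = 0.0352). The call was lost when any of the 6 arrays was left out, as far as an adjusted p of 0.216, and when the stretch arrays were kept out of the fit. Stretch against phenylephrine was 0.20 ± 0.07 (adjusted p = 0.289, or 0.0492 with the block). The related exporter Abcc1 had -0.34 ± 0.11 with phenylephrine (adjusted p = 0.16, or 0.00845 with the block), 0.00 with stretch, and 0.34 ± 0.11 between the treatments (adjusted p = 0.238, or 0.0124 with the block). Cbr1, a carbonyl reductase, read 11.38 and 11.16 in control, 10.92 and 10.70 with phenylephrine, and 11.06 and 10.94 with stretch. It was lower under both stimuli, with -0.46 ± 0.13 for phenylephrine (limma adjusted p = 0.129, or 0.00207 with the block) and -0.27 ± 0.13 for stretch. Gsta4, Gstm1, Ephx1 and Ugdh had changes between -0.24 and -0.04 in both treatments, and none passed.

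Other genes of the pathway were counted from a list of 114, of which 102 were found. With stretch 5 of 102 rose and none fell in limma, where 0.457% and 0.0633% of all named genes rose and fell. At an unadjusted p under 0.05, 12 were higher and 3 lower with stretch, where 4.77% and 2.47% of all named genes were. With phenylephrine 4 rose and 6 fell, against 2.41% and 2.36%. In the direct comparison 5 were higher and 1 lower with stretch, against 0.999% and 0.837%. With the block 11 rose and 3 fell with stretch, against 3.25% and 1.3% of all named genes. For phenylephrine the block gave 16 rises and 16 falls, against 8.39% and 12.4%, and for the direct comparison 20 and 8, against 9.28% and 5.02%. After quantile normalization 12 rose and 13 fell with phenylephrine, where 6.3% and 6.39% of all named genes did. For stretch against phenylephrine 15 were then higher and 5 lower, against 3.41% and 3.76%. The stretch count was 2 without control replicate 1, 1 without control replicate 2 and 2 when stretch replicate 1, or its partner stretch replicate 2, was dropped. With either control array left out the phenylephrine count was 2 genes, both rises. For the difference between the treatments it was 2 without stretch replicate 1 and 1 without stretch replicate 2, and without phenylephrine replicate 2 it was 4, of which 2 were higher with stretch.

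The widest gap between the treatments was at Hmox1, heme oxygenase 1, a classic NRF2 target. It read 10.96 and 11.03 in control, 11.09 and 11.11 with phenylephrine, and 13.35 and 13.70 with stretch. It rose by 2.53 ± 0.14 with stretch and had 0.10 ± 0.14 with phenylephrine. The difference from phenylephrine was 2.43 ± 0.14 (limma adjusted p = 0.000775), a call that passed under all 14 alternatives. Maoa, a mitochondrial monoamine oxidase that makes hydrogen peroxide, read 10.08 and 10.34 in control, 10.51 and 10.33 with phenylephrine, and 11.47 and 11.87 with stretch. It rose 2.75-fold with stretch (1.46 ± 0.17; limma adjusted p = 0.0154) and was 2.37-fold higher than with phenylephrine (1.25 ± 0.17; adjusted p = 0.0177). Sesn2, a stress-induced sestrin, rose with stretch by 0.91 ± 0.10 (adjusted p = 0.0144), and its difference from phenylephrine was 0.54 ± 0.10 (adjusted p = 0.0546, or 0.000481 with the block). With phenylephrine it had 0.37 ± 0.10 (adjusted p = 0.11, or 0.00434 with the block).

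A pair of pathway genes rose under both stimuli. Chac1, which degrades glutathione, read 9.03 and 9.05 in control, 10.06 and 9.76 with phenylephrine, and 10.16 and 10.04 with stretch. It rose by 1.06 ± 0.12 with stretch and 0.87 ± 0.12 with phenylephrine (limma adjusted p = 0.0154 and 0.0107). Maff, a small MAF protein like Mafg, read 8.29 and 8.20 in control, 9.05 and 8.97 with phenylephrine, and 9.12 and 9.12 with stretch. It rose by 0.87 ± 0.08 with stretch and 0.76 ± 0.08 with phenylephrine (adjusted p = 0.00493 and 0.00373). These are changes against the same control arrays. Another small MAF, Mafk, rose with phenylephrine by 0.87 ± 0.12 (adjusted p = 0.00887) and had 0.49 ± 0.12 with stretch (adjusted p = 0.254, or 0.00275 with the block). Stretch against phenylephrine was -0.38 ± 0.12 (adjusted p = 0.219, or 0.00676 with the block).

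Of 17 glutathione S-transferases outside the 40 members, 1 rose and 4 fell with phenylephrine in limma, where 2.41% of all named genes rose and 2.36% fell. With the block 2 rose and 6 fell, against 8.39% and 12.4%. Gstk1, a mitochondrial and peroxisomal transferase, read 11.42 and 11.38 in control, 13.02 and 12.62 with phenylephrine, and 11.62 and 11.62 with stretch. It rose 2.68-fold with phenylephrine (1.42 ± 0.15; limma adjusted p = 0.0038) and was -1.20 ± 0.15 in stretch against phenylephrine (adjusted p = 0.0122). Mgst1, a membrane-bound transferase, read 12.87 and 12.71 in control, 11.97 and 11.61 with phenylephrine, and 12.84 and 12.80 with stretch. It fell with phenylephrine by 1.00 on the log2 scale (adjusted p = 0.0113) and had 0.03 ± 0.14 with stretch. Ephx2, the soluble epoxide hydrolase, also fell with phenylephrine (-0.91 ± 0.12; adjusted p = 0.00887). It passed with the block for stretch (-0.34 ± 0.12; adjusted p = 0.689, or 0.0257) and for stretch against phenylephrine (0.57 ± 0.12; adjusted p = 0.0806, or 0.000329). Higher with stretch than with phenylephrine were also Oplah, which recycles 5-oxoproline of the glutathione cycle (0.59 ± 0.09; adjusted p = 0.0296), and Cth, which makes cysteine (0.40 ± 0.06; adjusted p = 0.0258). Against control, Oplah fell with phenylephrine (-0.66 ± 0.09; limma adjusted p = 0.0106) and had -0.07 ± 0.09 with stretch. Cth had 0.27 ± 0.06 with stretch against control (adjusted p = 0.207, or 0.0286 with the block). Slc7a11, the cystine importer that feeds glutathione synthesis, had 0.32 ± 0.08 with stretch (adjusted p = 0.34, or 0.0249 with the block) and -0.11 ± 0.08 with phenylephrine. The difference of 0.43 ± 0.08 between the treatments passed with the block (adjusted p = 0.0567, or 0.00159).

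**Figure D4:**
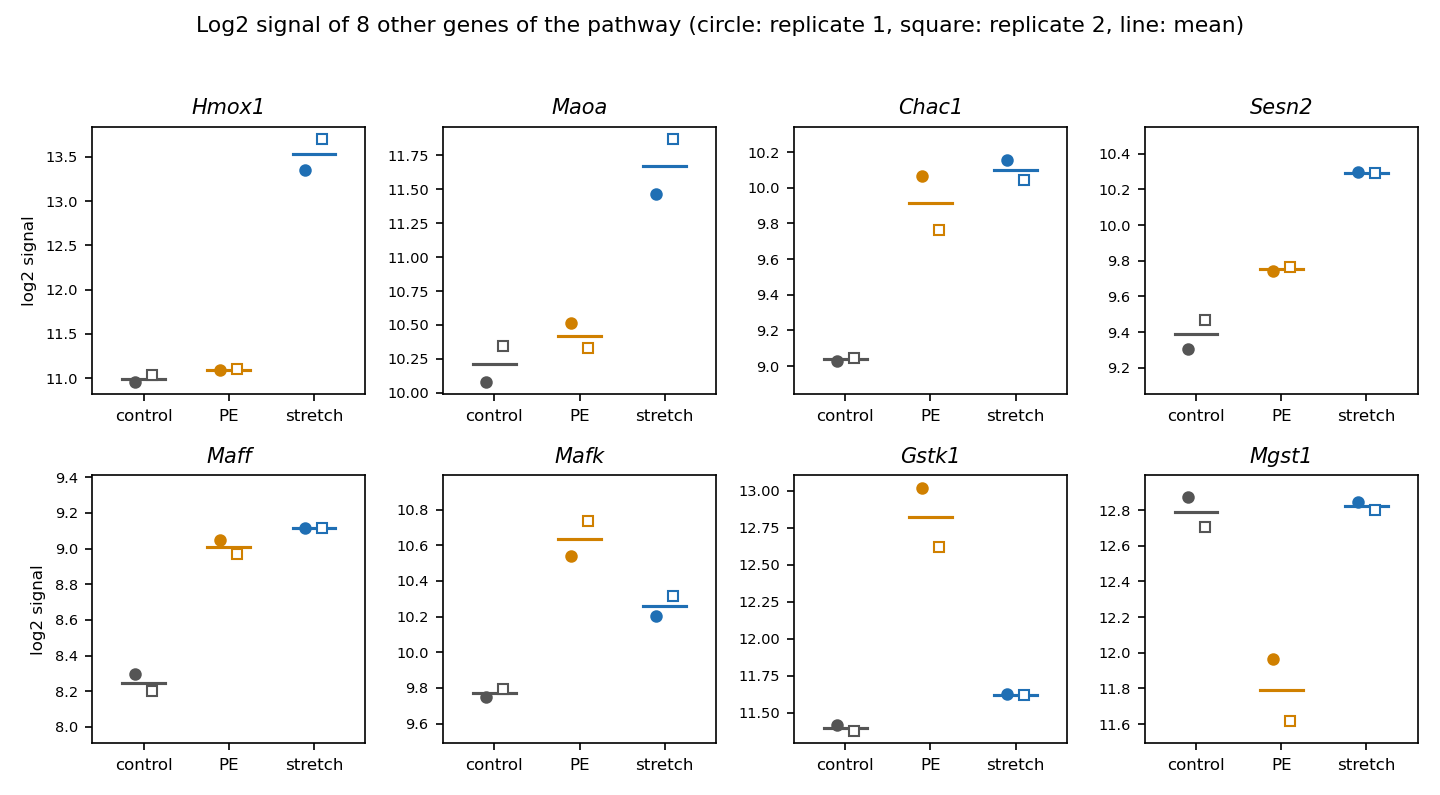
Log2 signal (vertical axis, a separate scale in each panel) of 8 further pathway genes on the 6 arrays, grouped as control, phenylephrine (PE) and stretch, with a circle for replicate 1, an open square for replicate 2 and a line for the group mean. Hmox1 and Maoa stand apart with stretch, Chac1 and Maff are raised under both stimuli, and Gstk1 (13.02 and 12.62) and Mgst1 (11.97 and 11.61) leave the control range with phenylephrine.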

How the data were processed

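Biotin-labelled RNA of 6 samples was hybridized to Affymetrix arrays, per the labels' protocols. The deposited values, 1 for each array and probe set, were taken as log2 expression from their range. How the authors corrected, summarized and normalized them was not stated, and no further normalization was applied. Of 31099 probe sets, 57 array controls were dropped, and tests ran on 31042: 20826 with 1 symbol in the platform annotation, 436 with several and 9780 with none. Probe sets with several symbols were not named, and Prdx1 had none of its own.

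One mean per group was fitted with limma 3.58.1 in R 4.3.3 (lmFit, eBayes with trend, two-sided, 3 residual degrees of freedom and 4.8 prior ones). The fit was also run on simulated data in which the arrays varied independently. That run cannot show how the fit does on arrays that deviate together, as those of equal number did here. The labels do not say what equal replicate numbers share. The differences of replicate 2 minus replicate 1 correlated between groups at 0.49, 0.67 and 0.53 across probe sets. The fit with a replicate block is therefore given where it moved a call of the probe set that stands for a named member or other pathway gene. For the cell type markers it is given only in part. Other alternatives were quantile normalization, subtracted array medians, a filter on dim probe sets, no variance trend, a robust prior, averaged probe sets, only the arrays compared, and leaving out each array. An exact test of 2 against 2 arrays cannot pass the threshold, so none was used. For arrays, their number limits the precision.

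The members and lists were chosen with earlier results of these data known. Named with every array value were members past the threshold in at least 1 comparison and a fixed panel of 12, and further members were chosen after their values were seen. Of the pathway list, at most 6 genes past the threshold per comparison were named, plus Hmox1 and Slc7a11. Promoter windows came from RefSeq (GRCr8), matched by gene identifier.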

Additional observations from a re-analysis of the deposited data

Results flagged for a closer look

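The changes of 3 members differed between the treatments in the direct test of stretch minus phenylephrine. These were Srxn1 (1.11 log2), Osgin1 (0.94) and Sqstm1 (0.90). Sqstm1 and Osgin1 lay above both controls with stretch and below both with phenylephrine on every array.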

How the results depend on the processing

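Among the members, 2 passed for stretch, 2 for phenylephrine and 3 for stretch against phenylephrine, all at a limma adjusted p under 0.05. With the replicate block 10, 16 and 14 passed, and after quantile normalization 9, 14 and 11. With all probe sets of a gene averaged, 1 passed for stretch and 5 for stretch against phenylephrine, and with no variance trend 5 did so for the latter. With only the 4 arrays compared, 1 passed for phenylephrine. Leaving out 1 array gave 1 to 2 for stretch, 0 to 2 for phenylephrine and 0 to 4 for stretch against phenylephrine. The count of 0 arose for phenylephrine without either control array and for stretch against phenylephrine without either stretch array. The cause was not tested. Subtracting array medians, leaving out dim probe sets or a robust variance prior left each count within 1.5 times. The counts of the pathway list under these settings were added after seeing the data. Of 9 calls followed singly, none changed sign, and Srxn1 for stretch and Hmox1 for stretch and for stretch against phenylephrine passed under all 14 alternatives. No detection calls were used, so a dim probe set, such as the dimmest of Srxn1 or Sqstm1, may show a compressed change. With 2 arrays per group, a change that did not pass is not shown to be absent.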
